A study of Mus musculus with 21 samples.

Results

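LaminB1 domains are stretches of chromatin that were enriched when LaminB1, a protein of the nuclear lamina, was precipitated from cross-linked cells. They were compared here between fibro-adipogenic progenitors (FAPs) of 2 mouse genotypes, on the 19 autosomes. All autosomal domains of the 2 deposited LaminB1 lists were taken, 985 in WT and 903 in Prdm16, of 8221 domains in the 8 domain lists of the series. The X chromosome, with a further 81 and 83 domains, was left out of the comparison. Each list came from 1 library, so every difference between the LaminB1 lists is a description with no test, and library and genotype cannot be told apart.

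FAPs are stromal cells that lie between muscle fibres, multiply after injury and can give rise to fat and fibrous tissue. The Prdm16 cells came from adult Prdm16Flox/Flox::PdgfrαCre-ERT/+ mice, in which a tamoxifen-dependent Cre at the Pdgfra locus can delete floxed Prdm16. The WT cells came from adult Prdm16Flox/Flox::Pdgfrα+/+ mice, which carry the same floxed alleles and no Cre. The labels give 1 protocol for both: tamoxifen on 5 days, 7 days of rest, cardiotoxin injury of muscle, sorting of FAPs 5 days later and 4 to 5 days of culture. They do not say how many animals gave cells to a library, or whether replicates came from separate animals. Besides the LaminB1 pair, the 21 samples include 6 libraries of H3K9me2 domains (3 per genotype) and 5 RNA libraries (3 WT, 2 Prdm16), used below as readouts of the same regions, and 8 input samples not used here.

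The nuclear lamina lines the inner nuclear membrane, and the chromatin that touches it forms long lamina-associated domains. Such domains are known to be poor in genes, rich in A and T bases and mostly silent, and many carry dimethylated lysine 9 of histone H3 (H3K9me2). PRDM16 is a zinc finger regulator of transcription of the PR domain family, known for its part in brown fat identity.

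Promoters of 4 genes from the named domains are printed here as examples, and they differ in their number of CG dinucleotides. Each runs from 250 bases before to 50 bases after the transcript start that the RefSeq promoter table gives for the gene, 5′ to 3′ on the gene's strand, on GRCm38.p6, with every CG dinucleotide in capitals. That start is not always where the gene body begins: it lies 663 kb into the body of Cdh12 and 1.195 kb into that of Cdh8, and at the start of the body for the other pair. Of 16457 table entries, 1646 start over 1 kb from the start of the gene body. Cdh12 and Cdh8 encode type II cadherins, adhesion proteins studied mostly in neurons. Crisp1 encodes a secreted protein of the epididymis, and Tmem132c a membrane protein. The Cdh12 window (chr15:21111202-21111501, plus strand) lies in a stretch covered in WT alone and has 9 CG, with 46.7% G and C. The Cdh8 window (chr8:99416422-99416721, minus strand) lies in a stretch that both lists cover and has 21 CG. Crisp1 (chr17:40319158-40319457, minus strand) and Tmem132c (chr5:127241576-127241875, plus strand) have theirs in domains that Prdm16 kept whole, with 2 and 29 CG.
Cdh12: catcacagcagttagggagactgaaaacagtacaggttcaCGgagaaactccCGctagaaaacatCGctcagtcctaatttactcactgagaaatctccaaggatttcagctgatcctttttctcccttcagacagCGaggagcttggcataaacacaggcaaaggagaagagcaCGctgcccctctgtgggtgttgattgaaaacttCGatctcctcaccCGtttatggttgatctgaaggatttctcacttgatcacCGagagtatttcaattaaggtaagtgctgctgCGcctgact
Cdh8: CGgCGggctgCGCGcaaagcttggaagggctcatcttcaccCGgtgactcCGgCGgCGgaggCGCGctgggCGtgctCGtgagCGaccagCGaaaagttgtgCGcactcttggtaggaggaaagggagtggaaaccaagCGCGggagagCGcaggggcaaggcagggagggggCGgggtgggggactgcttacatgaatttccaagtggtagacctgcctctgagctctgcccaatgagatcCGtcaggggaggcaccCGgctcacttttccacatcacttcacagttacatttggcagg
Crisp1: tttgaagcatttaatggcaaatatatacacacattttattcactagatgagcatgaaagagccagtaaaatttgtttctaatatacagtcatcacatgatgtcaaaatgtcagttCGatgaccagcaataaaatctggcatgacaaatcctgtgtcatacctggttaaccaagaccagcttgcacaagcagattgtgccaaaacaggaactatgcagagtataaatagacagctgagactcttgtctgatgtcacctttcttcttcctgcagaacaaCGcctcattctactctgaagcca
Tmem132c: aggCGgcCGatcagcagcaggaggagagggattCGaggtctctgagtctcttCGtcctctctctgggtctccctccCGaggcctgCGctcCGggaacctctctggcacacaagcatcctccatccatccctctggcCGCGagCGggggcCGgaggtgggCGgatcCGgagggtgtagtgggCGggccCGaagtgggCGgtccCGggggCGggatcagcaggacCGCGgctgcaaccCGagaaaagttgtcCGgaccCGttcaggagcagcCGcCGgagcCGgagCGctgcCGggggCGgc

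The RNA libraries were checked against cell type markers and against their labels. The 8 FAP markers summed to between 3563 and 6810 CPM (each library's counts scaled to the same total) in the 5 RNA libraries. The 4 pericyte and smooth muscle markers summed to 170 to 467 CPM, and the 6 myoblast markers to 52.3 to 197 CPM. Sums were 4.13 to 5.74 CPM for 5 macrophage markers, 3.47 to 7.69 for 4 endothelial and 0.856 to 2.13 for 3 Schwann markers. Dpp4, a marker of a FAP subset, was near 0, at 0 to 2.397 CPM. Prdm16 itself was counted 171, 94 and 59 times in WT-labelled libraries and 91 and 86 times in Prdm16-labelled libraries, so the groups overlapped. These are raw counts over the whole gene, in libraries of 5839587 to 10657791 counts. They do not tell whether the floxed part was deleted. Ifit3, an interferon-induced gene, had 478, 759 and 21.8 CPM in WT and 564 and 21.4 CPM in Prdm16. The authors' deposited table lists Ifit3 as lower in Prdm16, with a log2 fold change of -4.79, which the libraries as labelled do not show. WT replicate 3 and Prdm16 replicate 1, as labelled, therefore go against that table, and results on RNA are given with that pair and, in the same or the next paragraph, without it. The library labelled Prdm16 replicate 2 had 15 Xist counts, against 3483 to 4652 in the other 4.

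LaminB1 domains covered less of every autosome in Prdm16 than in WT. WT domains covered 646.54 Mb, or 26.3% of the 2460.51 Mb span of the autosomes, and Prdm16 domains covered 305.236 Mb, or 12.4%. Covered length in Prdm16 was 0.472 times that in WT. Almost all of it lay inside the WT domains: 299.104 Mb was shared, which is 98.0% of the Prdm16 length and 46.3% of the WT length. WT alone covered 347.436 Mb and Prdm16 alone 6.132 Mb. The Prdm16 domains thus lay on ground that was already covered in WT, with little elsewhere.

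**Figure D1:**
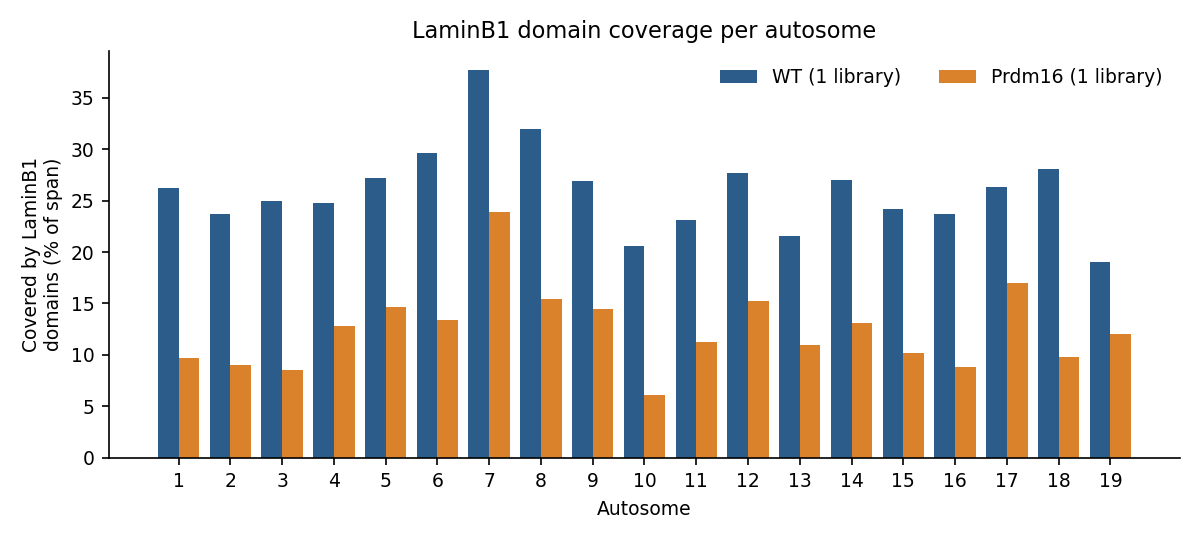
Percent of each autosome's span covered by LaminB1 domains, with 1 bar per library. Prdm16 is below WT on 19 of 19 autosomes, with WT between 19.02% and 37.7% and Prdm16 between 6.06% and 23.9%.

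The share of WT length that Prdm16 also covered ran from 28.5% on chromosome 10 to 63.9% on chromosome 17, with a median of 47.3% over the 19 autosomes. Chromosome 10 had 26.896 Mb in WT and 7.916 Mb in Prdm16, the lowest cover of any autosome in that list (6.06%). Chromosome 17 had 24.964 Mb in WT and 16.128 Mb in Prdm16. Chromosome 7, which had the most cover in both lists, kept 62.5% (54.752 Mb in WT, 34.776 Mb in Prdm16). On 5 autosomes Prdm16 had more domains than WT although it covered less length. Autosomes with more protein-coding genes per Mb kept a larger share, with a Spearman correlation of 0.54 over 19 autosomes that all come from the same pair of libraries. Cover in WT and cover in Prdm16 ran in a similar order, with a Spearman correlation of 0.65.

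Along the chromosomes, more was kept near the ends than in the middle. With each autosome cut into 5 equal parts, Prdm16 covered 54.8% of the WT length in the part nearest the centromere (mouse autosomes have theirs at the low-coordinate end) and 55.0% in the part at the other end. The 3 parts between kept 41.0%, 35.9% and 43.4%, in order. WT cover itself was 29.0% in the first part and 26.7% in the last, and 27.6% in the middle part that kept least.

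Domains were shorter in Prdm16. WT domains ran from 72 to 9004 kb with a median of 348 kb, and Prdm16 domains from 56 to 4648 kb with a median of 196 kb. Counted by length, 50% of the covered bases lay in domains of at least 1192 kb in WT and at least 492 kb in Prdm16. Domains of at least 1 Mb numbered 172 in WT, holding 54.8% of the cover, and 49 in Prdm16, holding 28.2%. At the short end, 256 WT domains (26.0%) and 453 Prdm16 domains (50.2%) were under 200 kb.

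The deposited score is the authors' own number for each domain and is used here only within a list. It followed length: the Spearman correlation of score and length was 0.92 over the 985 WT domains and 0.86 over the 903 Prdm16 domains. WT scores had a median of 30.7 and a range of 9.39 to 829. Prdm16 scores had a median of 12.2 and a range of 7.21 to 391. The 2 ranges are on scales that the sources used here do not tie together, so they are not compared.

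Each WT domain was given 1 of 4 fates in the Prdm16 list. A domain was absent where it shared no base with a Prdm16 domain, and kept whole where at least 90% of its length was covered. Of the rest, it was split where 2 or more Prdm16 pieces lay in it and shortened where 1 did. Of 985 WT domains, 114 (11.6%) were kept whole, 289 (29.3%) were shortened, 159 (16.1%) were split and 423 (42.9%) were absent. Absent domains were the most numerous class but held 16.9% of the WT length, whereas split domains held 43.7%. Median lengths were 494 kb for domains kept whole, 448 kb for shortened, 1468 kb for split and 208 kb for absent domains.

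Of the 347.436 Mb covered in WT alone, 109.464 Mb (31.5%) was in absent domains. A further 148.084 Mb (42.6%) was trimmed from the ends of shortened, split and whole domains, and 89.888 Mb (25.9%) was in gaps that opened between pieces. Trimming of ends therefore removed more length than the absence of complete domains. The longest stretch covered in WT alone ran for 2704 kb on chromosome 14 (chr14:111728001-114432000).

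**Figure D2:**
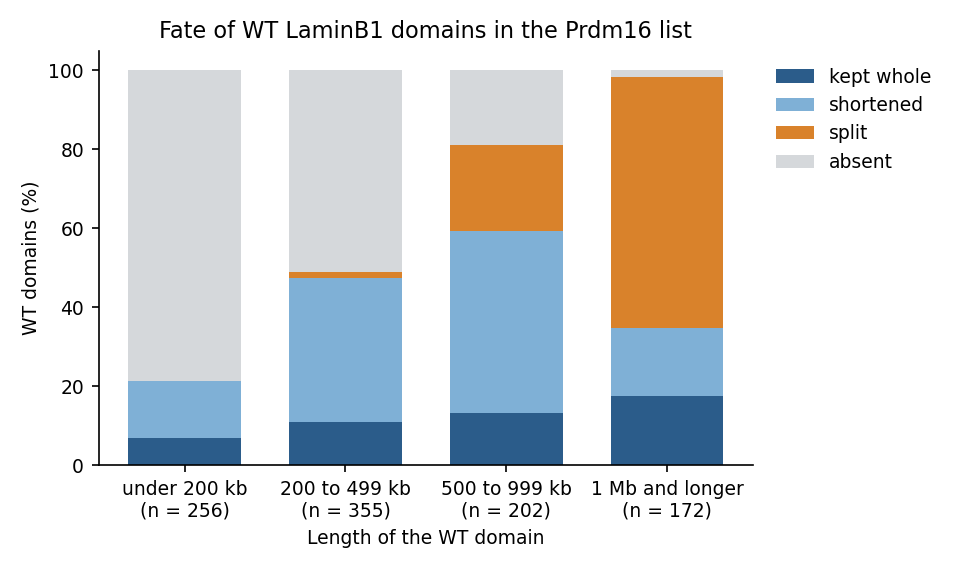
Percent of WT LaminB1 domains with each fate in Prdm16, by the length of the WT domain, with the number of domains under each bar. Absent domains make up 78.5% of those under 200 kb and 1.74% of those of 1 Mb and longer, where split domains make up 63.4%.

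The fate of a domain went with its length and score. Under 200 kb, 201 of 256 domains (78.5%) were absent, and from 200 kb to under 500 kb 181 of 355 (51.0%) were. From 500 kb to under 1 Mb, 38 of 202 (18.8%) were absent, and of those of 1 Mb and longer 3 of 172 (1.74%). Splitting ran the other way, from 0 of 256 in the shortest class to 109 of 172 (63.4%) in the longest. A short domain has little room for more than 1 piece, so the split class leans to long domains by its definition. An absent domain must have no base covered, which a short domain meets more easily, so that class leans to short domains likewise. By score, 219 of the 247 lowest-scoring WT domains (88.7%) were absent and 1 of the 246 highest-scoring (0.407%) was.

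Score also went with fate within classes of length. These classes are wide and score followed length, so length was not held equal within them. Between 500 kb and 1 Mb, the higher-scoring 101 domains had 26 kept whole and 1 absent, and the lower-scoring 101 had 1 kept whole and 37 absent. Of domains of 1 Mb and longer, 29 of the higher-scoring 86 and 1 of the lower-scoring 86 were kept whole. Score per 100 kb of length had a median of 14.0 in domains kept whole, 9.89 in shortened, 8.36 in split and 7.80 in absent domains. Prdm16 covered 58.0% of the length of the 246 highest-scoring WT domains and 7.56% of that of the 247 lowest-scoring.

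Cutting the WT list by its score until it covered no more than the Prdm16 list left 143 domains with 303.764 Mb. Of these, 84 were split, 43 were kept whole, 16 were shortened and 0 were absent, and Prdm16 covered 60.0% of their length. The absent class is thus a class of lower-scoring WT domains, while splitting was met among the highest-scoring. Score followed length, so a cut by score leaves mostly long domains. Per 100 kb of length, split domains had a median score of 8.36, near the 7.80 of absent domains and under the 14.0 of those kept whole. The cut-off for the fate of a whole domain falls among close values: chr14:42972001-43416000 was just inside, with 90.1% covered, and chr6:131516001-133868000 just outside, with 89.97% in 3 pieces.

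Shortened domains were trimmed at both ends more often than at 1 end. Both ends were lost in 210 of 289, the low-coordinate end alone in 42 and the high-coordinate end alone in 37. The median loss was 76 kb at the lower end and 64 kb at the higher end, and the piece that was left had a median of 184 kb. Fewer than 50% of bases were left in 125 of the 289.

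Most boundaries lay further in. There were 388 pairs in which a WT and a Prdm16 domain overlapped each other and no other domain, with median lengths of 458 kb in WT and 232 kb in Prdm16. Of their 776 ends, 607 (78.2%) lay further in, 67 lay at the same place and 102 lay further out in Prdm16. The median end lay 40 kb further in, and the most outward end stood at -156 kb on that scale. Both ends lay further in for 234 pairs and further out for 2. Boundaries in both lists fall on multiples of 4 kb, and 173 ends lay within 8 kb of each other.

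**Figure D3:**
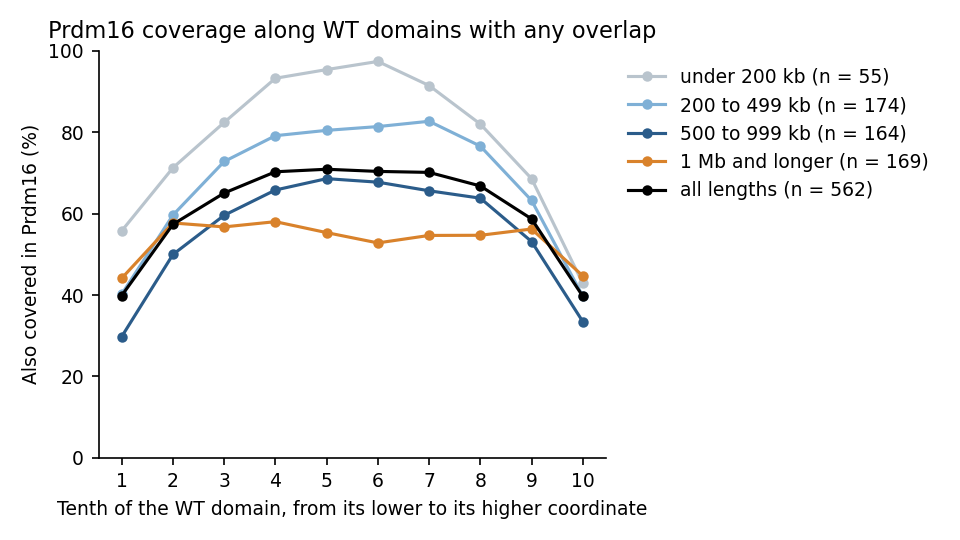
Percent of the bases of WT LaminB1 domains that Prdm16 also covered, in 10 equal parts from the lower to the higher coordinate, by length of the WT domain and for all 562 WT domains with any overlap. For all lengths the outermost parts are at 39.9% and 39.7% and the fifth part at 70.9%, while domains of 1 Mb and longer show a flatter line.

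Split domains broke into 473 pieces with 314 gaps between them. Of the 159, 82 were in 2 pieces, 41 in 3 and 36 in 4 or more. Gaps had a median of 190 kb and ran from 4 to 1940 kb, and 229 of the 314 (72.9%) were 100 kb or longer. Only 16 gaps were 20 kb or shorter, so most breaks were many times the 4 kb boundary step. In 118 of the 159 split domains both ends were lost as well.

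Read from the Prdm16 list, 835 of 903 domains (92.5%) lay inside WT domains, with at least 90% of their length covered there. Another 46 extended past a WT domain and 1 bridged 2 WT pieces. New domains, with no base in common with WT, numbered 21 and held 2.58 Mb, each 200 kb long or less. The 3 longest were chr19:54136001-54336000 and chr15:31652001-31852000, neither overlapping a protein-coding gene, and chr12:61632001-61816000, which overlaps Lrfn5, a gene for a synaptic adhesion protein. H3K9me2 domains covered the first of these to 100% in all 6 H3K9me2 libraries and the second to between 30.5% and 100%. The third was covered to 100% in WT replicate 3 and to 0% in the other 5.

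Absent domains lay at a median of 892 kb (8 to 10564 kb) from the nearest Prdm16 domain, and 248 kb from the nearest other WT domain. The WT list covers more length, so these distances are not alike, and neither was compared with regions placed at random. Domains kept whole had the nearest other WT domain at a median of 152 kb and split domains at 400 kb.

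The 3 longest split domains hold few genes, and most of those genes encode neuronal adhesion proteins. The longest domain of the WT list, chr15:12952001-21956000 (9004 kb, score rank 4 of 985), kept 27.8% of its length in 15 pieces of 72 to 372 kb. It holds 5 protein-coding genes, among them the type II cadherins Cdh6, Cdh9, Cdh10 and Cdh12. Cdh12, Cdh10 and Cdh6 lay with 100% of the gene body in stretches covered in WT alone, and Cdh9 had 69.2% of its body in a piece that was left. In chr8:95968001-102396000 (6428 kb, rank 2), 68.0% was kept in 6 pieces. Cdh8, its only protein-coding gene, had 48.2% of its body in shared stretches, including its start, and 51.8% in a stretch covered in WT alone. The promoter with 21 CG printed above is the one that stayed covered.

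The next in length, chr1:98596001-104748000 (6152 kb, rank 5), kept 44.2% in 9 pieces. It contains Cntnap5b, a gene of the contactin-associated family of neuronal adhesion proteins. Another of the 3 highest-scoring WT domains, chr19:48044001-52548000 (rank 3), was split in 8 pieces with 63.5% kept. It holds Sorcs1 and Sorcs3, which encode sorting receptors studied in neurons, and the insulin gene Ins1.

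**Figure D4:**
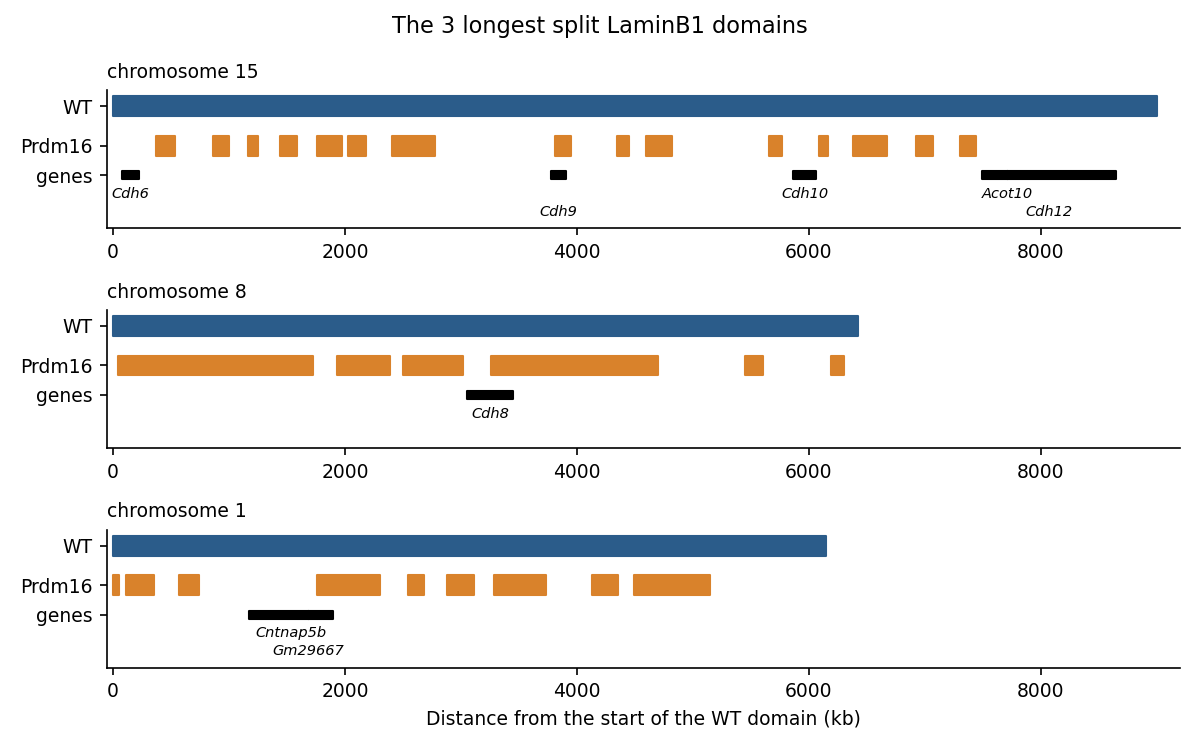
The 3 longest split LaminB1 domains drawn to scale, with the WT domain, the Prdm16 pieces inside it and the protein-coding genes wholly inside, against distance from the start of the WT domain in kb. The domain on chromosome 15 is left in 15 pieces of at most 372 kb, whereas that on chromosome 8 keeps a piece of 1680 kb.

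The 3 longest domains kept whole held 76, 53 and 8 protein-coding genes. The highest-scoring WT domain, chr14:3000001-7708000 (4708 kb), was covered to 98.7%. It lies at the start of the assembled sequence and holds 76 protein-coding gene models, of which 75 have only provisional symbols. The sources used here do not say how reads that match several copies were placed there. In chr17:37344001-40792000 (3448 kb, 99.3% covered), 33 of 53 genes are olfactory receptors, beside Crisp1 and Crisp3, genes of secreted proteins of the male tract and salivary gland, and Esp8, an exocrine gland peptide gene. The third, chr5:125560001-128976000 (3416 kb, 98.9% covered), holds Tmem132c and Tmem132d, membrane protein genes, Rimbp2, a synaptic scaffold gene, and Glt1d1.

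The longest shortened and absent domains mostly had no protein-coding gene wholly inside, and genes that only overlap them were not counted. Of the shortened ones, chr12:17940001-21072000 kept 89.8%, just under the limit for a whole domain, and 19 of its 20 genes have provisional symbols, the other being Zfp996. By contrast chr2:98160001-100840000 kept 3.73% and chr2:94488001-96584000 kept 29.4%, and neither has a protein-coding gene wholly inside. The 3 longest absent domains, chr10:64368001-65752000, chr16:83232001-84460000 and chr14:84528001-85592000, likewise have none wholly inside. Their scores ranked 435, 256 and 488 of 985.

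The territory lost in Prdm16 held fewer genes than the territory kept. There were 6.30 protein-coding genes per Mb in shared territory, 3.54 in WT-only territory and 9.68 outside both lists. By fate, the density ran from 8.55 genes per Mb in domains kept whole through 5.22 in shortened and 4.10 in split to 2.79 in absent domains. No protein-coding gene had 50% or more of its body in 284 of the 423 absent domains (67.1%), against 23 of the 114 kept whole. Domains that a longer gene only overlaps can be among these. A gene was placed in a territory by 50% or more of its body, which gave 1883 shared, 1230 WT-only and 23 Prdm16-only genes among 20665.

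Gene bodies in lost territory were longer. Median gene length was 4.03 kb in shared, 6.16 kb in WT-only and 19.7 kb in outside territory. Genes of 100 kb and longer made up 5.89% of shared genes and 14.9% of WT-only genes, against 11.2% of all autosomal genes. In absent domains they made up 22.0%.

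Promoters of both territories were poor in CG. The 300-base RefSeq promoters held a median of 1 CG in shared territory, 2 in WT-only territory and 17 outside. At least 10 CG, counted on the printed strand and the same on the other, stood in 7.24% of 1589 shared promoters and 13.6% of 962 WT-only promoters. Among all 16457 autosomal promoters in the table the share was 58.6%. The Cdh8 and Tmem132c promoters above are among the few in shared territory past that count, and the Crisp1 promoter is of the common kind.

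Large receptor families made up much of the gene content, and they differed in where they lay. Of all protein-coding genes, 9.11% were in shared, 5.95% in WT-only and 84.7% in outside territory. Of 352 vomeronasal receptor genes, which encode pheromone receptors, 252 were shared, 65 were WT-only and 35 outside, and 174 lay in domains kept whole. The 71 defensin genes, for antimicrobial peptides, had 51 shared and 3 WT-only. Olfactory receptor genes were divided more evenly, with 476 of 1104 shared and 412 WT-only, and 584 of them lay in split domains. Zinc finger genes with Zfp symbols were mostly outside (348 of 388), with 22 shared and 17 WT-only. Members of such families sit in clusters and share domains, so they are not independent: 29 WT domains hold the vomeronasal receptors and 34 the olfactory receptors.

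Genes of neuronal adhesion and of protocadherin clusters lay in all 3 territories. Of 36 listed genes for neuronal adhesion proteins and glutamate receptors, 9 were WT-only, 6 were shared, 19 were outside and 2 were mixed. The 9 include Cntnap2, Lsamp and Lrp1b, very long genes for neuronal surface proteins, each in a split domain. The 16 WT domains that hold genes of this list were covered to 48.4% in Prdm16, close to the 46.3% of all WT length. Among 10 type II cadherins, 4 were WT-only, Cdh8 only just so, 1 was shared and 5 were outside. Of 57 clustered protocadherin genes on chromosome 18, which give neurons their surface identity, 28 were WT-only, 7 shared and 22 outside, with 13 in 1 absent domain and 22 in 1 split domain.

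Genes of FAP identity, fat, matrix and muscle were almost all outside LaminB1 domains in both lists, against 84.7% of all protein-coding genes. This held for all 20 listed FAP identity genes, 21 adipogenic genes, 30 sarcomere genes, 20 cell cycle genes, 22 interferon genes, 22 matrix genes, 16 genes of H3K9 methylation and HP1, and 13 genes of the lamina and inner nuclear membrane. All 39 Hox genes, 37 chemokine genes and 67 clustered histone genes were outside as well. Pdgfra, Pparg, Myod1, Lmna and Lmnb1 are among them. Prdm16 was outside too, 10.6 kb from the nearest WT domain.

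Of 18 myogenic regulators and fusion genes, 17 were outside and only Pax7 was WT-only. That is 5.56% of the list, close to the 5.95% of all protein-coding genes that were WT-only. Pax7 encodes the transcription factor that marks muscle stem cells, and it lies at chr4:139737059-139833530. In WT, 93.8% of its body was in chr4:139692001-139828000, a domain of 136 kb whose score ranked 953 of 985, and this domain was absent in Prdm16. Pax7 RNA was at 0, 0 and 1.07 CPM in WT and at 0.118 and 0.171 CPM in Prdm16, so the groups overlapped near 0. The 6 myoblast markers summed to 52.3, 61.2 and 197 CPM in WT and 138 and 138 CPM in Prdm16, and their part in this was not tested. H3K9me2 domains covered 0% of the Pax7 domain in all 6 H3K9me2 libraries.

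RNA from genes in either territory was low in both genotypes. At least 1 CPM was reached by 1.97% ± 0.20 of 1774 shared genes and 7.31% ± 0.63 of 1209 WT-only genes (SD, n = 5 libraries), and by 68.3% ± 0.52 of outside genes. WT-only genes were above shared genes in 5 of 5 libraries, by 5.34 ± 0.70 percentage points (SD), with an exact paired permutation p of 0.0625, two-sided, the smallest that 5 libraries allow. By fate the share was 2.25% in domains kept whole, 4.30% in shortened, 4.47% in split and 8.05% in absent domains. In each of the 5 libraries the share was higher in absent domains than in domains kept whole. Leaving out the pair at odds with the authors' table, the shares were 2.07% ± 0.17 for shared and 7.20% ± 0.86 for WT-only genes (SD, n = 3 libraries). The difference was then 5.13 points, in 3 of 3 libraries, with an exact paired permutation p of 0.25, the smallest that 3 libraries allow. Domains kept whole were at 2.25% and absent domains at 7.74%.

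No gene was called between the genotypes by edgeR's quasi-likelihood test at an adjusted p of 0.05, which makes a background of 0% of 15240 genes tested. Unadjusted p under 0.05 was reached by 378 genes, and DESeq2 called 2. For this test and its alternatives, genes of every RefSeq type were placed in territories, not only protein-coding ones. Of such WT-only genes 130 passed the expression filter, with 0 called and a median log2 fold change of -0.06. Unadjusted p under 0.05 was reached by 5 of them (3 higher and 2 lower in Prdm16). Of shared genes of every type 69 passed, with 0 called, 1 at unadjusted p under 0.05 and a median of -0.10. The median over all genes tested was 0.00053. Leaving out WT replicate 3 and Prdm16 replicate 1, 93 genes were called, 0 of 126 WT-only and 2 of 77 shared, Sp110 and Zfp984. The medians were then -0.23 for WT-only and -0.32 for shared genes.

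The 6 listed genes in WT-only territory with the smallest unadjusted p had differences in both directions, and none passed the test. Pcdhb16, a clustered protocadherin, had 16.3, 18.3 and 15.9 CPM in WT and 12.2 and 7.36 CPM in Prdm16. Its neighbour Pcdhb20 had 5.35, 8.22 and 5.06 CPM against 3.08 and 3.42 CPM. The edgeR adjusted p was 0.9996 for each. Rpl39l, a paralog of a ribosomal protein gene, lies in an absent domain and had 26.6, 21.1 and 22.6 CPM against 20.1 and 6.34 CPM.

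Zfp976 had 2.53, 3.54 and 2.53 CPM in WT and 5.92 and 3.94 CPM in Prdm16. Ntm, an adhesion gene of neurons, had 0.469, 1.70 and 0.778 CPM against 1.66 and 2.74 CPM, with overlap between groups. Zfp971 had 8.35, 8.93 and 4.28 CPM against 4.02 and 4.45 CPM, also with overlap. Chosen after their values were seen, Gpr149, a receptor gene in an absent domain (chr3:62532001-62780000), had 5.63, 1.28 and 6.61 CPM in WT against 11.8 and 20.2 CPM in Prdm16. Its unadjusted edgeR p of 0.0169 became an adjusted p of 0.9996. Leaving out WT replicate 3 and Prdm16 replicate 1, none of these 7 genes passed either. The edgeR adjusted p was then 0.298 for Rpl39l, 0.546 for Gpr149 and 0.767 for Pcdhb16, and between 0.866 and 0.964 for the other 4. Of the cadherins of the 15-piece domain, Cdh12 was at 0, 0, 0.194, 0 and 0 CPM and Cdh6 between 0.142 and 1.26 CPM. Values this low do not serve to compare the genotypes.

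H3K9me2 domains covered more of the LaminB1 territory lost in Prdm16 than of the territory kept, in both genotypes. In WT, 66.8% ± 18.6 of WT-only territory and 46.5% ± 11.01 of shared territory was covered (SD, n = 3), against 30.1% ± 6.64 of all autosomes. Over the 6 H3K9me2 libraries, WT-only territory was above shared territory by 18.5 ± 10.5 points (SD) in 6 of 6, from 2.78 to 30.8 points. The exact paired permutation p was 0.03125, two-sided, the smallest that 6 libraries allow, and also 0.03125 after adjustment over the 4 such comparisons made.

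Absent domains carried more H3K9me2 than domains kept whole. H3K9me2 covered 35.0%, 22.8% and 25.4% of the length of domains kept whole in WT replicates 1, 2 and 3, and 91.9%, 60.3% and 84.1% of that of absent domains. In Prdm16 replicates 1, 2 and 3 the values were 27.2%, 11.9% and 14.1% against 51.1%, 81.1% and 59.6%. For all autosomes the cover was 35.9%, 22.8% and 31.5% in WT and 20.3%, 32.5% and 27.5% in Prdm16. Domains kept whole were thus at 0.976, 0.998 and 0.806 times the autosomal cover in WT, and at 1.34, 0.365 and 0.511 times in Prdm16. Absent domains were above domains kept whole in 6 of 6 libraries, by 48.6 ± 16.3 points (SD), with an exact paired permutation p of 0.03125. They were also above split domains (by 26.1 points) and above shortened domains (by 13.2 points) in 6 of 6. The highest-scoring domain went against this, since chr14:3000001-7708000 was kept whole and 97.4% to 100% of it was covered by H3K9me2 in WT. Fate went with domain length and score as well, and their part in this difference was not tested.

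**Figure D5:**
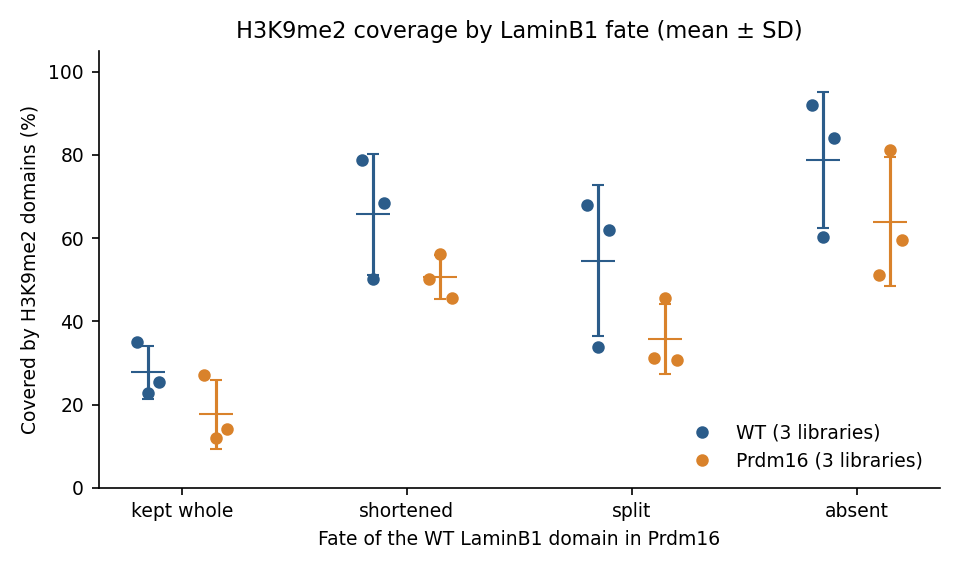
Percent of the length of WT LaminB1 domains covered by H3K9me2 domains, by fate in Prdm16, with 1 point per library and the mean ± SD of 3 libraries per genotype. Domains kept whole lie between 11.9% and 35.0% and absent domains between 51.1% and 91.9%.

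Between the genotypes the H3K9me2 cover of these territories overlapped. WT-only territory was covered to 80.8%, 45.6% and 74.0% in WT and to 39.8%, 63.4% and 44.3% in Prdm16. Prdm16 minus WT was -17.7 points, with an exact permutation p of 0.2, two-sided, where 3 against 3 libraries cannot go below 0.1. Shared territory was 46.5% ± 11.01 in WT and 32.5% ± 4.57 in Prdm16 (SD, n = 3), with an exact permutation p of 0.2. Relative to each library's cover of all autosomes, WT-only territory was at 2.20 ± 0.18 in WT and 1.84 ± 0.20 in Prdm16 (SD, n = 3), and the groups did not overlap. The exact permutation p was 0.1, the smallest possible, and 0.378 after adjustment over 17 such tests. Absent domains were at 2.62 ± 0.06 in WT and 2.39 ± 0.19 in Prdm16 on that relative scale, without overlap and with the same p.

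In the longest split domain, H3K9me2 cover was either full or slight. It was 100%, 21.5% and 100% in WT and 7.85%, 100% and 20.6% in Prdm16. In the longest absent domain, on chromosome 10, it was 100%, 8.89% and 100% in WT and 0%, 100% and 8.89% in Prdm16. Neither domain separated the genotypes.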

How the data were processed

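Domains and lists were chosen with earlier results of these data known. Each deposited domain list holds a chromosome, start, end and the authors' score per domain, 1 list per sample. The submitters' processing notes name Bowtie 1.2.2 and mm10 and dm6. For the caller, its settings, the meaning of the score and the read depth, nothing was stated (not given in the sources used here). Printed starts count from 1. Domains were compared in bins of 1 kb in Python 3.11.15 (pandas 2.3.3, scipy 1.17.1, matplotlib 3.10.9). A chromosome's span runs to its last RefSeq gene or deposited domain, in place of its length. Genes and promoters are from RefSeq on GRCm38.p6, with 1 promoter start per gene.

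The deposited count table holds the authors' raw counts per gene for 5 libraries of 5839587 to 10657791 counts, from polyadenylated RNA by SMART-seq2 per the labels. Of 55341 symbols, 36168 matched autosomal genes, 20210 of them protein-coding. Shares at 1 CPM use the protein-coding genes, and counts of tested genes by territory use all matched genes. Counts were tested with edgeR 4.0.16 (filterByExpr, TMM, robust quasi-likelihood, Benjamini-Hochberg, R 4.3.3) and with DESeq2 1.42.0 as an alternative, and the edgeR script was tested on simulated data. The p-values measure only the spread between these libraries. CPM values use library totals. A log2 fold change for Ifit3 was copied from the authors' deposited table. Single values were compared by exact permutation over libraries.

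Domains named are the 3 longest of each fate, the 3 longest new in Prdm16 and the 3 highest-scoring in WT, with up to 4 genes each, longest first. Of list genes in WT-only territory, the 6 with smallest unadjusted p were named. Promoters printed are 4 of the 6 that the rule gave, leaving out Lamtor3-ps with 8 CG and Zfp996 with 25 CG. No genome was used, so base composition is given for promoters only.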

Additional observations from a re-analysis of the deposited data

How the results depend on the processing

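The lower cover in Prdm16 held under 5 of 7 alternatives. The other 2 cut the WT list to the Prdm16 length, which sets the ratio by construction, at 1.00485 by score and 1.00159 by length. The kept share of WT length moved by less than 1.5 times throughout, from 43.2% to 60.0%. With a limit of 0.8 for a whole domain, 17.9% were kept whole and 24.4% shortened, and with every base required, 1.83% and 38.2%. Closing gaps of up to 100 kb in both lists gave 33.7% shortened and 39.0% absent. In the higher-scoring part of each list, 16.7% were kept whole, 40.2% shortened, 12.2% split and 30.9% absent. With WT cut by score, 30.1% were kept whole, 11.2% shortened, 58.7% split and 0% absent. With WT cut by length, an alternative chosen after seeing the data, the values were 18.6%, 10.9%, 69.8% and 0.775%.

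Over all genes, DESeq2 called 2 and edgeR with the replicate block 1. Replicate numbers are not tied to animals or days in the labels, and the block called 0 genes in either territory. Without the filter on low counts 25 genes were called, 1 of them (Gpr149) WT-only, with medians of -0.54 for WT-only and -0.67 for shared genes. Leaving out each RNA library in turn gave 0 to 4 calls over all genes, with medians from -0.12 to 0.0058 for WT-only and from -0.36 (without Prdm16 replicate 1) to 0.0292 for shared genes. The removal of WT replicate 3 and Prdm16 replicate 1 was also chosen after seeing the data. It gave 93 calls, 2 in shared and 0 in WT-only territory, and medians of -0.32 and -0.23.

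Leaving out each H3K9me2 library gave 44.5 to 53.6 points between absent and kept-whole domains, with an exact permutation p of 0.0625, since 5 libraries allow no smaller. For WT-only territory, Prdm16 minus WT ran from -28.2 to -10.7 points, and the replicate block gave an exact permutation p of 0.5. The LaminB1 lists have no replicates to leave out, and their unknown depth limits every difference between them, from the covered length to the trimmed ends, the gaps and the absent domains.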

Other observations

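Other families also had members on both sides, where all protein-coding genes had 9.11% shared and 5.95% WT-only. Of 99 cytochrome P450 genes, which encode oxidases of drugs and steroids, 36 were shared and 10 WT-only, and the 8 WT domains that hold them were covered to 81.5% in Prdm16. Of 62 serpin genes, for protease inhibitors, 12 were shared and 11 WT-only, and their 4 WT domains were covered to 28.3%. Keratin-associated protein genes, which build hair, had 12 of 56 shared and 18 WT-only. Of 37 voltage-gated potassium channel genes, 6 were WT-only and 2 shared. The 6 include Kcnd3, a channel gene of neurons and heart, in an absent domain (chr3:105260001-105644000).

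On the X chromosome, left out above, WT domains covered 46.84 Mb and Prdm16 domains 25.368 Mb, and Prdm16 covered 49.96% of the WT length. Of 81 WT domains there, 22 were kept whole, 22 shortened, 11 split and 26 absent.

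Peg3, an imprinted gene, lies in WT-only territory in a shortened domain on chromosome 7 and was chosen after its values were seen. It had 52.5, 137 and 82.5 CPM in WT and 63.9 and 56.5 CPM in Prdm16, with overlap between groups.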
